A study of Mus musculus with 2 samples.

Results

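The transforming growth factor beta (TGF-β) pathway was described in splenic regulatory T cells through 10 genes chosen by name: the ligand Tgfb1, the receptors Tgfbr1 and Tgfbr2, the signal transducers Smad2, Smad3 and Smad4, the inhibitors Smad7, Ski and Skil, and the integrin subunit Itgb8. All probes that the platform annotation pairs with these symbols were taken, which gave 13 of the 25697 probes on the array and covered 8 of the 10 genes. Of these 8 genes, 7 were among the 7611 named genes detected on at least 1 array, and Itgb8 was detected on neither. Smad7 and Ski were paired with no probe and were not analysed here.

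The cells were CD4+ CD25+ GITR+ cells sorted from the spleens of C57BL/6 mice, either WT at 6 weeks of age or Bach2 KO, which lack the transcription factor Bach2, at 7 weeks. There was 1 Illumina array per genotype, so the differences below are descriptions of 2 samples, without replicate error or p-values. The labels do not name the Bach2 allele or say how many animals gave each sample, and no probe was paired with Bach2, so the array holds no check of the deletion. Both samples are labelled male. The Bach2 KO array nevertheless detected Xist at an intensity of 393, and the WT array did not detect it. The 3 Y-linked genes measured were lower on the Bach2 KO array. Kdm5d was 6.37-fold lower (827 in WT, 120 in Bach2 KO) and Eif2s3y 3.60-fold lower (3451 and 983), and both were still detected there. Uty was detected in WT only. The Bach2 KO library thus held both Xist and Y-linked RNA, which the label does not account for.

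TGF-β is secreted as a latent complex and must be released, for example by integrins that carry the beta 8 subunit, before it can bind. The active ligand joins Tgfbr2 to Tgfbr1, and Tgfbr1 then phosphorylates Smad2 and Smad3, which enter the nucleus with Smad4. In T cells this signal supports regulatory T cell differentiation and survival and restrains effector cytokines. Bach2, a bZIP factor, is known mostly for repressing genes in lymphocytes, through DNA elements related to those of AP-1.

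The members were at like levels in the 2 genotypes, with Tgfbr1 and Tgfb1 the furthest above and Smad4 the furthest below. Differences are given as log2 of normalized intensity, Bach2 KO minus WT, at each gene's brightest detected probe, where detected means a detection p-value under 0.01. None of the 7 detected members differed by 1.5-fold in either direction. Over all 7611 detected genes, 8.15% were at least 1.5-fold higher and 6.77% at least 1.5-fold lower, so 0 of 7 is near the background. The members' differences ran from -0.37 to 0.50 with a median of -0.0010, beside a median of -0.03 over all detected genes. The differences of all genes had a lower quartile of -0.26 and an upper quartile of 0.22. The only measure of technical scatter was the spread of differences between probes of the same gene, with an SD of 0.23 over 1734 genes, and it does not cover error that the probes of a gene share. In such bulk samples, fewer cells that express a gene and less of its RNA per cell cannot be told apart.

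**Figure D1:**
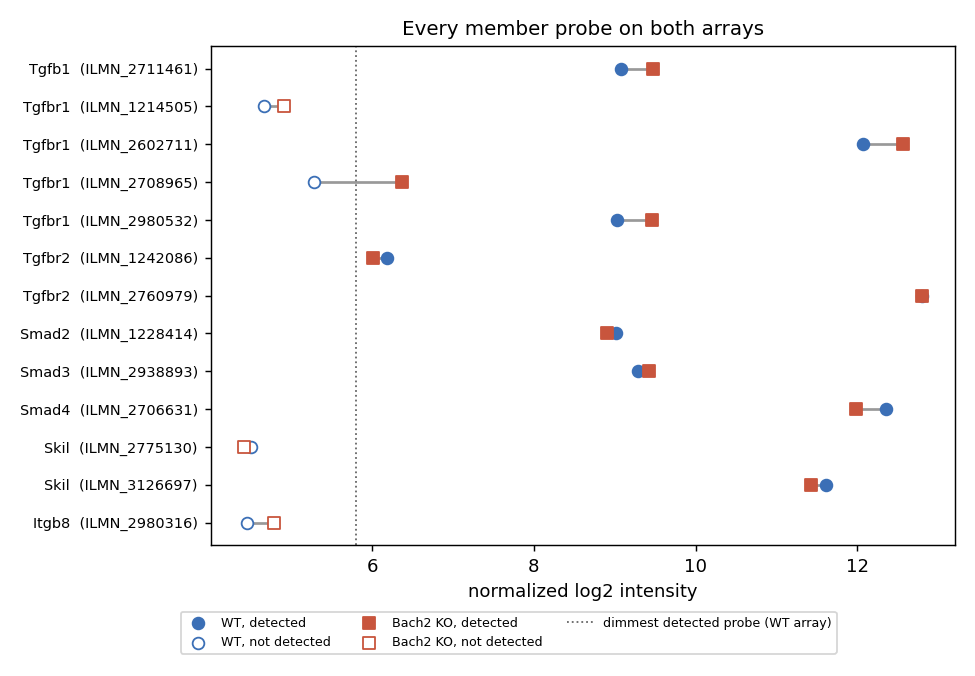
Normalized log2 intensity of each of the 13 probes of the 8 members on the WT array (circles) and the Bach2 KO array (squares), with open symbols where the detection p-value was not under 0.01 and a dotted line at the dimmest detected probe of the WT array (5.80). The 2 symbols of a probe lie close together at most probes, with Tgfb1 and the 3 detected Tgfbr1 probes shifted towards Bach2 KO and Smad4 towards WT; levels of different probes cannot be compared.

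The ligand gene Tgfb1, which encodes the TGF-β isoform made by most immune cells, was measured by 1 probe (ILMN_2711461). Its deposited intensity was 520 in WT and 706 in Bach2 KO, and it was detected on both arrays. After normalization the levels were 9.08 and 9.47 on the log2 scale, a difference of 0.39 or 1.31-fold higher in Bach2 KO. This lies outside the between-probe SD, and 13.7% of all detected genes were at least as far above WT. The other TGF-β isoforms, Tgfb2 and Tgfb3, were not detected on either array.

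Several other blood cells also make TGF-β1, so their markers are given beside this value. All 4 mast cell and basophil markers were at least 1.5-fold higher in Bach2 KO, with a summed level of 8.63 in WT and 9.91 in Bach2 KO on the log2 scale. All 5 measured neutrophil markers stood at least 1.5-fold below WT, with a summed level of 11.6 in WT and 9.25 in Bach2 KO. None of the 4 platelet markers (Pf4, Ppbp, Itga2b and Gp9) was detected on either array. Of 5 monocyte and macrophage markers measured, Cd14, Itgam and C1qa were not detected, and Lyz2 and Adgre1 differed by 0.04 and -0.14. The part of these cells in the Tgfb1 difference was not tested.

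Tgfbr1, the type I receptor that phosphorylates Smad2 and Smad3, was higher in Bach2 KO at all 3 of its detected probes, of which 2 were detected on both arrays. At the brightest probe (ILMN_2602711) the deposited intensity was 4242 in WT and 6240 in Bach2 KO. The normalized levels were 12.07 and 12.57, a difference of 0.50 or 1.41-fold, and 10.2% of all detected genes were at least as far above WT. A second probe (ILMN_2980532), at 500.5 in WT and 699 in Bach2 KO, differed by 0.43. A dimmer probe (ILMN_2708965) was detected in Bach2 KO only, where its intensity was 66.6 against 22.8 in WT, and the dimmest detected WT probe gives at least 1.49-fold higher. The remaining probe was detected on neither array and has no fold. The brightest probe's difference was under 1.5-fold with quantile normalization and passed it with median scaling (0.59). The mean of the 3 detected probes was 0.67 with the probe undetected in WT at its plain difference, and 0.50, under the line, with that probe at its bound.

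Tgfbr2, the type II receptor that binds the ligand first, was level between the genotypes. Its brightest probe (ILMN_2760979) had an intensity of 6880 in WT and 7299 in Bach2 KO, and both arrays stood at 12.79 after normalization, a difference of -0.0010. The sign of so small a value has no meaning, and it was 0.12 with median scaling and 0.04 with cyclic loess. The dimmer probe (ILMN_1242086), at 57.0 in WT and 48.6 in Bach2 KO, differed by -0.17. Thus the probes of the receptor pair gave 0.50 and 0.43 for the type I receptor and -0.0010 and -0.17 for the type II receptor where detected on both arrays, and the difference between the receptors was not tested.

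The promoter windows of the ligand and both receptors are printed because Bach2 is a DNA-binding repressor, and Tgfb1 and Tgfbr1 were the highest members while Tgfbr2 was level. Of the members, 6 had a window used here. They are RefSeq sequences of the GRCm38.p6 build, from 250 bases before to 50 bases after the annotated start of the gene, written 5′ to 3′ on the gene's strand. Capitals mark matches to GTCTG on either strand, the short element that Smad proteins contact.
Tgfb1, chr7:25686752-25687051, plus strand: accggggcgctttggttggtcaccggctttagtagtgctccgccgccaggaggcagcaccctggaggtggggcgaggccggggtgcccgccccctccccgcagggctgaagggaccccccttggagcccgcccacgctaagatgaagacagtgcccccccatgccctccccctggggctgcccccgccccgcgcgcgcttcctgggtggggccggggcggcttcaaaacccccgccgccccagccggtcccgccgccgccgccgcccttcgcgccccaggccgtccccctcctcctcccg
Tgfbr1, chr4:47352972-47353271, plus strand: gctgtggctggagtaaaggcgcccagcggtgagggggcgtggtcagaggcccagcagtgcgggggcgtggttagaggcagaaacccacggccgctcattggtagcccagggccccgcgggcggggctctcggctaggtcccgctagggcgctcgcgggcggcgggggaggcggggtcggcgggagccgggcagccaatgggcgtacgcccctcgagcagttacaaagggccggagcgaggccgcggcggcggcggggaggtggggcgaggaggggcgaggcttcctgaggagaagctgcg
Tgfbr2, chr9:116175314-116175613, minus strand: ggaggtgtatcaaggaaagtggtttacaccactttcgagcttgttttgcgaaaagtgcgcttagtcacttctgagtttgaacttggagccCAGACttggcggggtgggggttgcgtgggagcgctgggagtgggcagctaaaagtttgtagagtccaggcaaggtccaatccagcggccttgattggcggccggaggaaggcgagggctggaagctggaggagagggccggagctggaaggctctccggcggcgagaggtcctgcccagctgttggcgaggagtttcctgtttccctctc

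These windows of Tgfb1 and Tgfbr1 are rich in G and C, with 77.0% and 74.7% of their bases, against 59.0% for Tgfbr2 and a median of 52.7% over all windows. They held 30, 34 and 15 CG dinucleotides respectively. The AP-1 core TGANTCA and its longer form GCTGANTCA, whose flank is that of a Maf site and which contains the core, were searched on both strands and matched in none of the 3 windows. Of all 32851 windows of the same length, 7.81% held TGANTCA and 1.19% held GCTGANTCA, so no match in 3 windows is near the background. Sites outside these windows were not searched, and binding of Bach2 was not tested. The palindromic Smad element GTCTAGAC, present in 0.213% of all windows, was absent from these letters too. GTCTG matched once in Tgfbr2, from position -160 to -156 relative to the start, and not in Tgfb1 or in this window of Tgfbr1. That short element occurs in 49.6% of all windows. A window at another annotated start of Tgfbr1 held 1 match to GTCTG and none to the other motifs, and those of Smad3, Ski and Itgb8 held no AP-1 core.

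Among the Smads, Smad4 was lower in Bach2 KO and the receptor-activated pair was level. Smad4, the common partner of all receptor-activated Smads, had an intensity of 5113 in WT and 4046 in Bach2 KO at its 1 probe (ILMN_2706631). Its normalized levels were 12.35 and 11.98, a difference of -0.37 or 1.29-fold lower, and 15.3% of all detected genes were at least as far below WT. Smad2 had an intensity of 495 in WT and 472 in Bach2 KO, and differed by -0.10 (9.01 against 8.91). Smad3, which like Smad2 is phosphorylated by Tgfbr1, had an intensity of 602 in WT and 682 in Bach2 KO, and differed by 0.13 (9.29 against 9.42). The differences of Smad2 and Smad3 lay within the between-probe SD, and each of the 3 genes rested on 1 probe.

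Skil encodes SnoN, a corepressor that binds Smad complexes and is itself induced by TGF-β in many cells. Its detected probe (ILMN_3126697) had an intensity of 3046 in WT and 2801 in Bach2 KO. The normalized levels of 11.61 and 11.43 gave a difference of -0.18, within the between-probe SD. The other Skil probe was not detected on either array, with intensities below 0. Itgb8, the integrin subunit that helps release active TGF-β, had intensities of -14.3 in WT and 5.09 in Bach2 KO, with detection p-values of 0.949 and 0.269. Neither reached the threshold, so no fold is given.

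**Figure D2:**
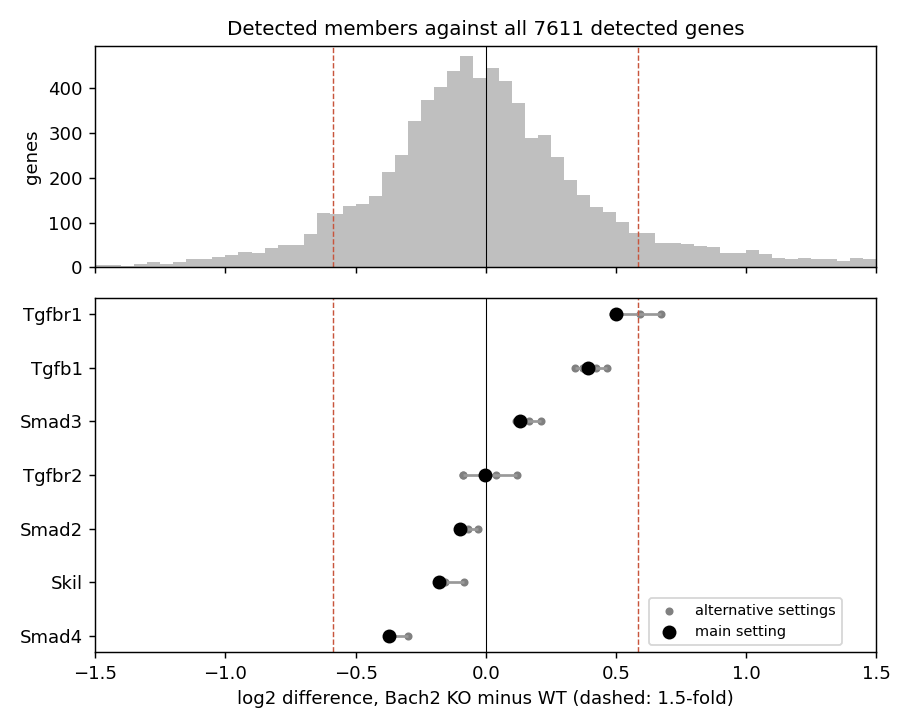
Upper panel: number of genes by log2 difference (Bach2 KO minus WT) over all 7611 detected genes in bins along the shared axis, with 153 genes beyond the plotted range of 1.5 in either direction. Lower panel: the 7 detected members under the main setting (black) and the alternative settings (grey), with dashed lines at 1.5-fold; all main values lie between the dashed lines, and only Tgfbr1 crosses one, with median scaling and with the plain mean of its detected probes.

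Around these members, 71 further genes of TGF-β and BMP signalling were examined, of which 66 had a probe and 34 were detected. The largest differences were those of the coreceptor Tgfbr3 and the convertase Furin upwards and of Smad5 downwards. In all, 2 of 34 stood at least 1.5-fold above WT and 3 at least 1.5-fold below it, shares near the background given above, and the other 29 lay between. Their median was -0.05, with 16 above 0 and 18 below.

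Of the genes that act on the ligand outside the cell or during its maturation, most lay above WT, but only Furin was counted past 1.5-fold. Of 7 detected genes of latency and activation, 6 had a difference above 0, beside 46.7% of all detected genes. The direction of so small a list was not tested. The median was 0.29, or 0.25 with Ltbp1, detected on 1 array, at its bound. Mmp14 and Mmp9, at 0.29 and 0.25, were among those close to the between-probe SD of 0.23. Furin, the convertase that cleaves the TGF-β1 precursor, had an intensity of 2461 in WT and 3954 in Bach2 KO. It was 1.56-fold higher at that probe and at least 2.65-fold higher at a probe detected in Bach2 KO only, with its dimmest probe undetected. Itgav, the alpha subunit that pairs with Itgb8, was at 94.4 in WT and 142 in Bach2 KO, a difference of 0.50 or 1.42-fold. Nrp1, a surface protein of thymus-derived regulatory T cells that can bind TGF-β1, was 0.24 above WT at the brightest probe and 0.32 above it at the dimmer. Ltbp1, a latent TGF-β binding protein, was detected in Bach2 KO only, at 1 of its 6 probes and at least 1.12-fold higher. Nrros, which anchors latent TGF-β1 on myeloid cells, went the other way, at -0.22. Lrrc32, whose product GARP holds latent TGF-β1 on the surface of activated regulatory T cells, was paired with no probe and was not analysed here.

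Of the other receptors, 3 of 12 were detected. Tgfbr3 encodes betaglycan, a coreceptor that presents ligand to Tgfbr2. Its detected probe had an intensity of 221 in WT and 408 in Bach2 KO and was 1.74-fold higher, and 4.89% of all detected genes were at least as far above WT. Its second probe was not detected on either array. Acvr1, a type I receptor for BMPs and activins, differed by 0.46, and Bmpr1a, a BMP receptor, by -0.20. Of the other ligands only Bmp7 was detected, at -0.08.

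Of the Smads that carry BMP signals, Smad5 and Smad1 were below WT, and Smad9 was not detected on either array. Smad5 had an intensity of 992 in WT and 563 in Bach2 KO and was 1.79-fold lower, a difference of -0.84, and 2.60% of all detected genes were at least as far below WT. Its second probe, detected on both arrays at 391 and 239, differed by -0.71, and a dim probe was detected in WT only. With that probe at its bound, the mean of the 3 probes was -0.52, inside the 1.5-fold line. Smad1 was at 931 in WT and 676 in Bach2 KO, a difference of -0.50, and its second probe differed by -0.58. Of the 5 detected Smads, only Smad5 thus passed the 1.5-fold line. Smad1 and Smad4 (-0.37) lay below WT inside it, and Smad2 and Smad3 differed by -0.10 and 0.13. The inhibitory Smad6 was not detected on either array.

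Nuclear cofactors, genes of ubiquitin and phosphate removal or transfer, and adaptor genes, which include both promoters and inhibitors of the signal, showed differences in both directions. Of the 5 detected nuclear cofactors none passed 1.5-fold, with the corepressor Tgif1 lowest at -0.53 (-0.36 and -0.12 at its other probes). Among 10 detected ubiquitin ligases, deubiquitinases and phosphatase genes, 2 lay at least 1.5-fold below WT and none as far above it. The shares over all detected genes were 6.77% and 8.15%, and so small a list cannot be told from them. The 2 lower genes were Ppp1r15a, a phosphatase subunit that Smad7 can bring to the type I receptor (413 in WT and 266 in Bach2 KO, difference -0.65), and Nedd4l, a ubiquitin ligase for activated Smads (444 and 291, difference -0.62). Both are close to the 1.5-fold line and lay inside it with median scaling (-0.57 and -0.55) and with the series matrix values (-0.51 and -0.50), and Nedd4l did so under 5 of the 11 alternatives. Rnf111, which marks SnoN and Smad7 for degradation, differed by -0.54, with its WT signal of 67.6 and Bach2 KO signal of 41.1 both dim. Of the deubiquitinases, Usp15, Uchl5 and Usp4 differed by 0.34, 0.29 and 0.26, and Usp11 by -0.33. Other probes detected on both arrays gave 0.49 and 0.57 for Uchl5 and 0.13 for Usp4. The signals of Usp15 (49.5 in WT and 66.2 in Bach2 KO) and Usp11 (62.7 and 46.5) were dim. The 6 detected adaptor and kinase genes, among them the TAK1 kinase gene Map3k7, lay between -0.28 and 0.32.

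**Figure D3:**
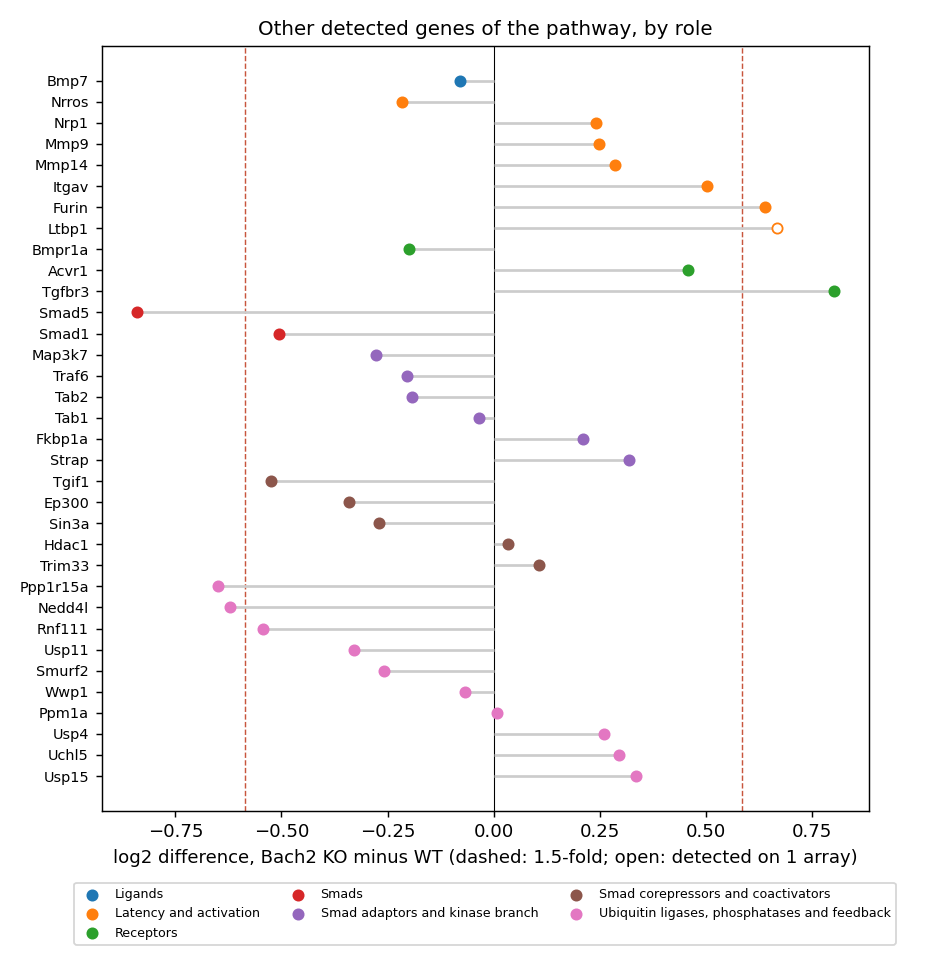
Log2 difference (Bach2 KO minus WT) of the 34 other detected genes of the pathway at their brightest detected probe, coloured by role, with dashed lines at 1.5-fold. Tgfbr3 and Furin lie right of the upper line and Smad5, Ppp1r15a and Nedd4l left of the lower one. Ltbp1 (open) is also drawn right of the upper line, at 0.67. It was detected on 1 array, so its plotted value is not a measured fold, and it is counted at its bound, inside the line.

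In a list of genes that TGF-β is known to induce or repress in some cells, many of those detected differed between the arrays. Both kinds were among the higher ones. This list of 35 symbols (Ctgf is an older name of Ccn2) was drawn up with earlier results of these arrays known. Its counts and median beside all genes are therefore no independent evidence of a direction, or that TGF-β targets differ more often than other genes. It shares Tgif1, Pmepa1, Ldlrad4 and Smad6 with the pathway genes above. Of the 35 symbols, 31 had a probe, and 10 of these were not detected. Of 21 detected genes, 11 stood at least 1.5-fold above WT, 2 stood at least 1.5-fold below it and the other 8 lay between, beside 8.15% and 6.77% of all detected genes. The median was 1.001, or 0.96 with the 3 genes detected on 1 array at their bound.

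Itgae, the CD103 gene that TGF-β induces in T cells, was at 4259 in WT and 16118 in Bach2 KO at its brightest probe, 3.69-fold higher. Cdkn2b, a cell cycle inhibitor gene induced through Smads in epithelial cells, was at 26.9 and 145, undetected in WT and at least 2.88-fold higher in Bach2 KO. Cdkn1a, another such inhibitor, was at least 1.94-fold higher at its brightest probe but differed by 0.20 at the probe detected on both arrays. Bhlhe40, a transcription factor of activated T cells, was 2.001-fold higher (1293 in WT and 2682 in Bach2 KO), and Rgs16, a regulator of G protein signalling, 2.38-fold higher (210 and 533). Some genes that TGF-β is known to restrain in T cells were higher as well. Ifng was 4.44-fold higher and Tbx21, the Th1 regulator, 2.31-fold higher, whereas Gata3 differed by 0.36. A second Ifng probe, detected on both arrays at 55.8 and 182, gave a smaller difference of 1.44 or 2.71-fold. The inhibitory cytokine gene Il10 was 3.12-fold higher (100.4 in WT and 357 in Bach2 KO). The chemokine receptor genes Cxcr3 and Ccr8 were 2.20-fold and 2.12-fold higher.

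Other genes of the list were lower or level. Cdkn1c, a cyclin-dependent kinase inhibitor gene, was at 299 in WT and 112 in Bach2 KO, 2.53-fold lower. Id3, an inhibitor of E proteins, was 1.95-fold lower, whereas its relative Id2 was 2.11-fold higher. Myc, which TGF-β represses in many cells, was detected in WT only, at least 1.498-fold lower, a bound just short of the line. Foxp3 differed by -0.10, Tgfbi, named for its induction by TGF-β, by 0.21, Junb by 0.22, Runx1 by -0.16 and the retention receptor gene Cd69 by -0.40. The feedback genes Pmepa1, Ldlrad4 and Smad6 were not detected on either array, and neither were Id1, Ccn2, Klf10, Gzmb, Runx3, Ahr and Cited2.

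**Figure D4:**
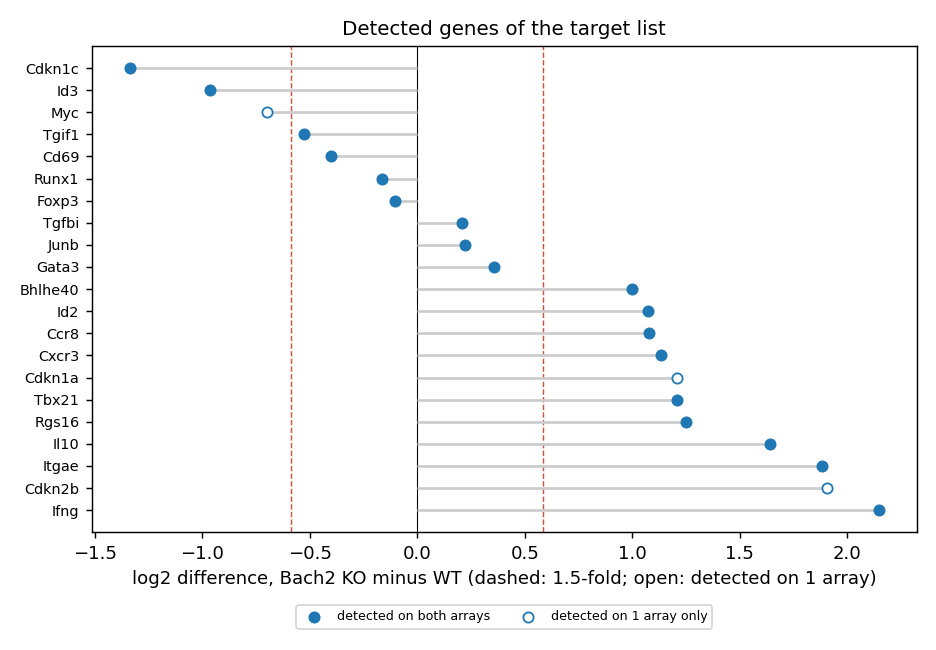
Log2 difference (Bach2 KO minus WT) of the 21 detected genes of the target list, with dashed lines at 1.5-fold and open symbols for the 3 genes detected on 1 array only, whose plotted value is not a measured fold. The genes spread from Cdkn1c at -1.34 to Ifng at 2.15, with 11 genes right of the upper line and 2 left of the lower one besides Myc, which is counted at its bound.

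Markers of the sorted cells were level at their brightest probes, with differences from -0.10 to 0.19. They were the sort markers Cd4, Il2ra (CD25) and Tnfrsf18 (GITR), and Cd3e, Foxp3, Ctla4 and Ikzf2, all detected on both arrays. Other probes gave 0.32 for Tnfrsf18, and -0.37 and 0.11 for Foxp3. Of other lineages, 1 of 2 detected B cell markers (Cd79b) and 1 of 2 detected NK cell markers (Klrb1c) were at least 1.5-fold higher. The other detected B cell marker, Cd79a, was dim and detected in WT only (40.9 in WT and 35.4 in Bach2 KO). Both detected red cell markers were at least 1.5-fold lower, and Cd8a, Ms4a1, Pax5, Ebf1 and Ncr1 were not detected. The CD8 T cell marker Cd8b1 was detected on both arrays, at 985 in WT and 1185 in Bach2 KO (0.20), and so was Eomes, at 161 and 220 (0.37). Of the stroma and endothelium markers, Pecam1 was 2.54-fold lower (-1.18 at its second probe) and Vcam1 1.71-fold higher, and Col1a1, Col3a1 and Cdh5 were not detected. Ifng and Tbx21 are also made by NK cells. The 2 detected NK cell markers, Klrb1c (54.1 in WT and 100 in Bach2 KO) and the brighter Eomes, had a summed level of 7.96 in WT and 8.44 in Bach2 KO. Klra8 was paired with no probe. The part of NK cells in the Ifng and Tbx21 values was not tested. Over all genes, 620 were at least 1.5-fold higher and 515 at least 1.5-fold lower, and with median scaling the split was 744 and 373. The arrays detected 10431 probes in WT and 10373 in Bach2 KO, and their number limits the precision.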

How the data were processed

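Per the labels, biotin-labelled RNA of sorted cells was read on Illumina mouse arrays, 1 per genotype. The authors' deposited intensity values are named non-normalized per the file headers, and a deposited detection p-value stands beside each. Values below 0 (30.4% in WT, 29.5% in Bach2 KO) show that background had been subtracted, by a method not stated in the labels or headers. The authors' deposited series matrix intensities are a straight-line function of that table on each array.

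Here the intensities were corrected by normexp with the detection p-values, given an offset of 16, quantile normalized and put on the log2 scale (neqc, limma 3.58.1, R 4.3.3). Quantile normalization hides a shift of all genes, and the offset draws differences of dim genes towards 0. A gene was its brightest probe detected on at least 1 array. For a gene detected on 1 array only the lower bound of its fold was counted, taken against the other array's dimmest detected probe (5.80 in WT, 5.81 in Bach2 KO) or the gene's own value there, if higher. Of 25697 probes, 23978 had 1 gene symbol in GEO's platform annotation, none had several and the rest are unnamed here.

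With 1 array per genotype no test was run. Members, gene lists and motifs were chosen with earlier results of these data known. All members were named, and of the other lists the genes past 1.5-fold or furthest out by role. The steps were tested on simulated data. Alternatives covered background correction, normalization (median scaling, cyclic loess), offset (1 and 50), the series matrix, the dim probe filter and the probe summary, the last also with bounds, added after seeing the data.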

Additional observations from a re-analysis of the deposited data

How the results depend on the processing

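Under all alternatives tried, every detected member kept its difference within the between-probe SD of its main value, and the sign of each held except that of Tgfbr2, which is near 0. Tgfbr1 ranged from 0.49 to 0.59, and was 0.67 with the plain mean of detected probes (0.50 with bounds). Tgfb1 ranged from 0.34 to 0.47, Smad4 from -0.38 to -0.30, Smad3 from 0.11 to 0.21, Skil from -0.18 to -0.08 and Smad2 from -0.10 to -0.03. The count of members at least 1.5-fold higher was 1 (Tgfbr1) with median scaling and 1 with the mean of detected probes, against 0. The latter rests on a probe undetected in WT, and an alternative chosen after seeing the data, the same mean with such probes at their bound, gave 0. Of the other pathway genes, 4 of 66 were higher with no filter on dim probes, and 1 was lower with median scaling and 1 with the series matrix values. Tgfbr3 and Furin stayed past 1.5-fold in all 12 settings, and Smad5 in 11, with -0.52 for the mean with bounds, where a dim probe enters at 0. The target list's median was 0.68 with genes detected on both arrays, 0.71 with the mean of detected probes (0.58 with bounds), 0.53 on the series matrix values and 0.16 with no filter, where 31 genes entered. Over all genes, 371 were higher and 223 lower on the series matrix values, 343 were lower with an offset of 50 and 798 with no filter; the cause was not tested, except that no filter tests 16593 genes. No paired analysis was possible because each genotype has 1 array. No replicate could be left out. Genes with signals near the dimmest detected probe, such as Rnf111, are limited by background.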
